A study of Mus musculus with 6 samples.

Results

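The Hox genes encode homeodomain transcription factors that mark position along the body, and they were read here in mouse cells after knockdown of calumenin. The members are the protein-coding rows of the deposited expression table whose symbol is Hox followed by the letter of the cluster (a to d) and a paralogue number. This rule found 40 rows with 39 symbols, since Hoxd4 is listed under 2 identifiers, of 54532 rows in all and 22046 protein-coding rows. The rule used names only and no measured value.

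The 6 libraries were 3 of calumenin knockdown cells (KD1 to KD3) and 3 of cells titled NC (NC1 to NC3), all labelled as primary fibroblasts of mouse lung, cells that build the collagen-rich matrix of connective tissue. The study asked what happens to senescence and fibrosis signalling when calumenin is lost. Calumenin is a calcium-binding protein of the secretory pathway encoded by Calu. The titles say knockdown while the descriptions of the same libraries say KO and WT, NC is not spelled out, and strain, age, passage, time and the agent used to lower calumenin are not given. The labels do not give separate cultures or animals for the replicates, so each p-value rests on the spread between these libraries, which may be technical only.

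Calu had 14.6, 12.6 and 13.1 FPKM (fragments per kilobase, scaled to library depth) in KD1, KD2 and KD3, against 220, 227 and 225 FPKM in NC1, NC2 and NC3. The reads assigned to genes, recovered from the FPKM values, numbered 15907164 to 18312888 per library, of which 10405 to 14688 fell in the Hox rows. The full sequencing depth is not known from them. KD1 stood apart from the other KD libraries: over all genes, the chi-square per degree of freedom was 15.7 and 25.9 between KD1 and the other two, against 4.15 between KD2 and KD3 and 2.26 to 3.03 between NC libraries. Results that rest on KD1 are therefore also given without it. The fibroblast markers Vim, Col1a2, Fn1 and Col1a1 were high, and 7 of 10 fibroblast markers reached 1 FPKM, but Lum had 0 reads and Dcn 3. The markers went against the lung part of the label: 1 of 10 lung mesenchyme markers (Tbx3) reached 1 FPKM, Tcf21, Wnt2 and Inmt had 0 reads in all 6 libraries, and Tbx5 had 1 read in all. Of the other lists, 0 of 8 lung epithelium and 0 of 5 endothelium markers reached 1 FPKM, with 1 of 5 for leukocytes (Cd68), 1 of 4 for mesothelium (Msln), 2 of 4 for keratinocytes (Krt10 and Trp63) and 2 of 6 for smooth muscle and pericytes (Cspg4 and Des). The cells are called KD and NC fibroblasts here only as the labels call them.

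In mammals the Hox genes lie in 4 clusters, and genes with the same number in different clusters are paralogues that descend from a single ancestral gene. Along each cluster the genes run in the order in which they are used along the body axis: those with low numbers (the 3′ end) start early and act from the hindbrain and neck backwards, and those with high numbers (the 5′ end) act in the lumbar, sacral and tail region and in the limbs. Cultured fibroblasts are known to keep part of the Hox pattern of the site they were taken from. Polycomb complexes hold unused Hox genes silent, Trithorax complexes keep used ones active, retinoic acid switches on the 3′ genes in embryos, and Pbx, Meis and Pknox proteins bind DNA together with Hox proteins.

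The Hoxa cluster is on chromosome 6 (chr6:52162417-52260880 from Hoxa2 to Hoxa13), Hoxb on chromosome 11 (chr11:96194316-96368256), Hoxc on chromosome 15 (chr15:102921103-103036852) and Hoxd on chromosome 2 (chr2:74668310-74765142), the other 3 each from the start of the first to the end of the last member in mm10, as deposited. Promoter sequences (RefSeq, GRCm38.p6, the stretch from just before to just after a gene's start) were found for 22 of the 39 symbols. A pair from the 5′ end of the Hoxd cluster is shown because the neighbours Hoxd9 and Hoxd10 lie on the 2 sides of the limit of expression there, and CpG pairs are in capitals.
Hoxd9 (chr2:74697513-74697812, plus strand): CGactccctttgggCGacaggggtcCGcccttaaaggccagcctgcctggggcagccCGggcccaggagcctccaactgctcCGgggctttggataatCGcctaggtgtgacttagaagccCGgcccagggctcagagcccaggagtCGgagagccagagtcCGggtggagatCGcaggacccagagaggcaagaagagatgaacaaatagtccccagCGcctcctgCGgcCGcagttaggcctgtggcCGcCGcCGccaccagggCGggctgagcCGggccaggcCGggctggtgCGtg
Hoxd10 (chr2:74691641-74691940, plus strand): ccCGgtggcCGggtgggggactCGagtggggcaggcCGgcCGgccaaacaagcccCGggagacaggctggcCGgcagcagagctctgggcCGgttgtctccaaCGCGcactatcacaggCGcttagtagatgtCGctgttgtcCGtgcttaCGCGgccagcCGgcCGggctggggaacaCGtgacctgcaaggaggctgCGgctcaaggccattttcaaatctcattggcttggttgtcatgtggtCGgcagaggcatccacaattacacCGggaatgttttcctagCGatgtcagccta
The Hoxd9 promoter holds 20 CpG pairs and the Hoxd10 promoter 22, against a median of 7 over all 32851 promoters of the table. Over the 13 promoters of Hox genes averaging 1 FPKM or more the CpG number was 4 to 29 with a median of 13. Over the 11 promoters of Hox genes below 1 FPKM it was 4 to 45 with a median of 20, so the ranges overlapped.

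The Hoxb8 promoter is shown because Hoxb8 was among the genes that rose in KD cells and its promoter holds a match to the paired Pbx and Hox motif TGATNNAT, searched on both strands and printed in capitals.
Hoxb8 (chr11:96281655-96281954, plus strand): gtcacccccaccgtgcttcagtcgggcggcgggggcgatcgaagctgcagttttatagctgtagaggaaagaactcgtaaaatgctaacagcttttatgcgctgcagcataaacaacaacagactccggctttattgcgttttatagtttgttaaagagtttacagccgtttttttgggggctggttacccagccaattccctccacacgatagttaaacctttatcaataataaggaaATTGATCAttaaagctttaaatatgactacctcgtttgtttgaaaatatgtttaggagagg
This motif was present in 2 of the 13 promoters of expressed Hox genes, 2 of the 11 promoters of those below 1 FPKM and 8.85% of all promoters of that length. The Meis motif TGACAG, whose letters differ from the first motif at the fourth base, was present in 2 of the 13, 0 of the 11 and 19.2% of all. These are matches of letters and not binding sites.

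The clusters also hold microRNA genes of the miR-196 and miR-10 families, and miR-196 is known to direct the cutting of Hoxb8 RNA in mouse embryos. Their mature sequences (RefSeq) are shown with the seed, bases 2 to 8, in capitals, because Hoxb8 carries a nearly complete match.
miR-196a-5p: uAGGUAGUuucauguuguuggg
miR-196b-5p: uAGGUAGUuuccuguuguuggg
miR-10a-5p: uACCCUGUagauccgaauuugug
miR-10b-5p: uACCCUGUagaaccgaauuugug
Site in the Hoxb8 transcript, chromosome 11: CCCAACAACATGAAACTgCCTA
The site, at positions 2208 to 2229 of the 2635-base transcript in GENCODE M21, can pair with 21 of the 22 bases of miR-196a-5p (capitals), and the lower case base leaves a G:U wobble. The next best position in any other Hox transcript paired with 15 of 22. The complement of the miR-196 seed, ACTACCT, was present in 11 of 39 Hox transcripts, against 16.2% of 21951 coding genes, and that of the miR-10 seed, ACAGGGT, in 7 of 39, against 20.6%. Mature microRNAs were not measured in these libraries.

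Most of the expressed Hox genes lay in paralogue groups 2 to 10 in both KD and NC cells. Past group 10, Hoxb13 of group 13 was also above 1 FPKM in every library. A mean over the 6 libraries of at least 1 FPKM was reached by 26 of the 40 rows, 12 of them at 10 FPKM or more and 14 between 1 and 10 FPKM. In groups 2 to 9 it was reached by 22 of 25 rows, in group 10 by 2 of 3 and in groups 11 to 13 by 1 of 9. Of the other 14 rows, 5 had reads but a mean under 1 FPKM (Hoxc11, Hoxd3, both Hoxd4 rows and Hoxd13). The remaining 9 (Hoxa11, Hoxa13, Hoxb1, Hoxc12, Hoxc13, Hoxd1, Hoxd10, Hoxd11 and Hoxd12) had 0 reads in all 6 libraries. A count of 0 allows up to 3 reads, between 0.0385 FPKM for Hoxd11 and 0.184 FPKM for Hoxc12 in a library, by counting error alone.

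**Figure D1:**
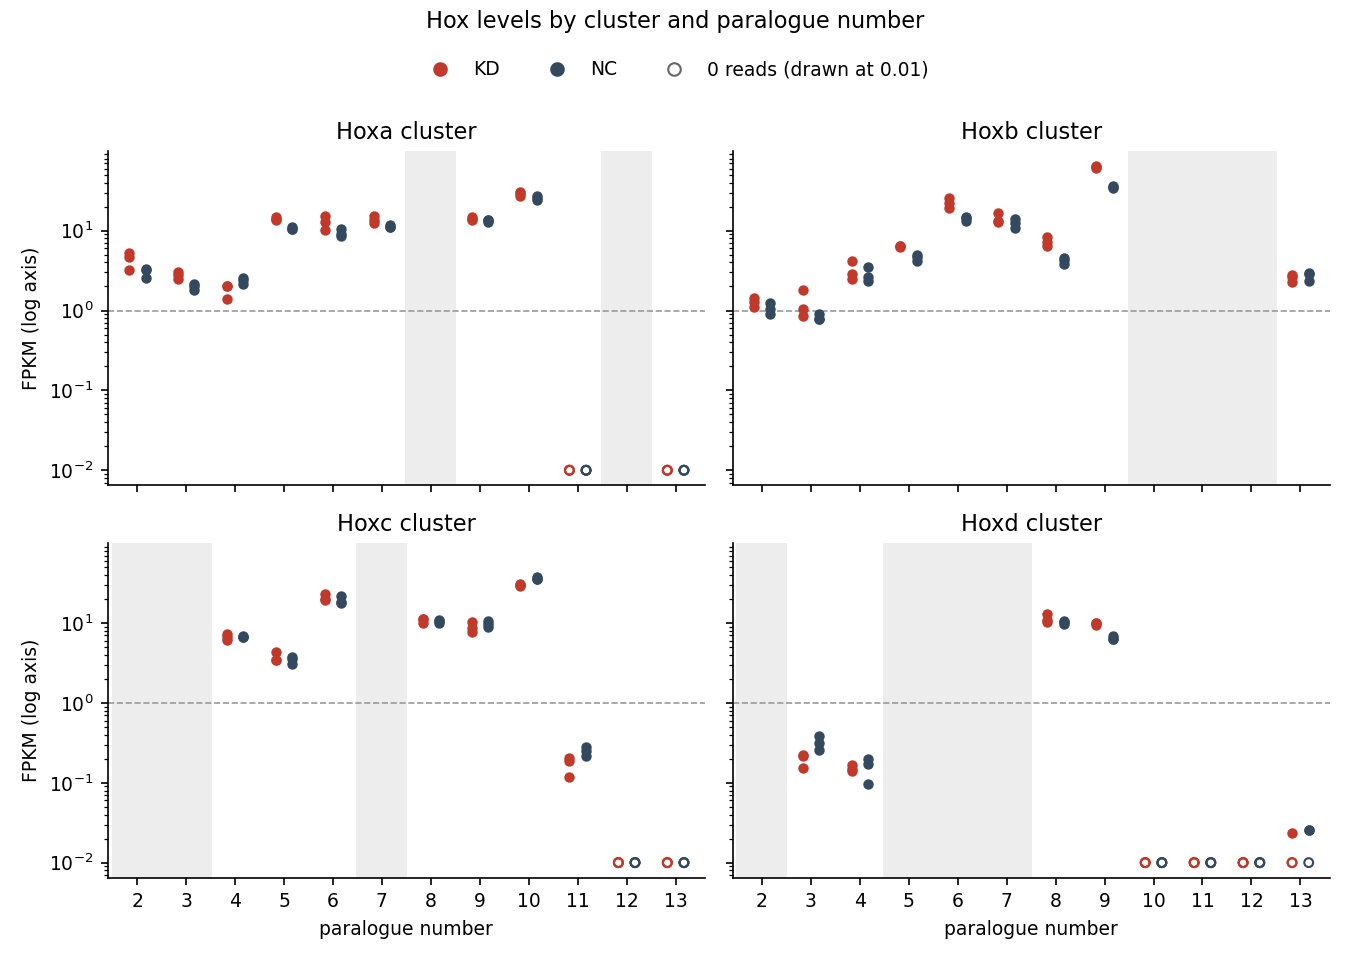
FPKM on a log axis of the Hox genes of paralogue groups 2 to 13 in each library (points), by paralogue number, with KD left of NC in each column. Grey columns are paralogues that the cluster lacks, open circles at 0.01 stand for 0 reads, the dashed line is 1 FPKM, and of the 2 Hoxd4 rows the higher is drawn. The last gene above 1 FPKM is that of group 10 in Hoxa and Hoxc and of group 9 in Hoxd, and in Hoxb it is Hoxb13, past group 9. Hoxd3 and Hoxd4 lie below the line, at most at 0.386 FPKM.

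The 5′ limit of expression was sharp in 3 of the 4 clusters. In the Hoxa cluster Hoxa10 had 30.5, 27.5 and 29.6 FPKM in KD and 27, 24.1 and 25.7 FPKM in NC, while Hoxa11, 1.25 kb away, had 0 reads. With 3 reads taken as the floor for Hoxa11 in each library, Hoxa10 was at least 291-fold higher in the library with the smallest ratio. In the Hoxd cluster Hoxd9 had 9.59, 10.1 and 10.1 FPKM in KD and 6.30, 6.89 and 6.23 FPKM in NC, while Hoxd10, 2.62 kb away, had 0 reads, at least 59.8-fold less. In the Hoxc cluster Hoxc10 had 29.5, 28.9 and 31.1 FPKM in KD and 35.5, 37.2 and 36.0 FPKM in NC, and Hoxc11, 9.09 kb away, had 0.119 to 0.205 FPKM in KD and 0.218 to 0.281 FPKM in NC. The Hoxc10 level was 128 to 242 times that of Hoxc11 within a library, with 18 reads of Hoxc11 in KD and 24 in NC in all. Each boundary lay between the same neighbours in KD and in NC libraries.

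The Hoxb cluster had a low level at its far end. Hoxb13, a gene of the tail bud and the hindgut and prostate in mice, lies 74.0 kb from Hoxb9 and had 2.30, 2.65 and 2.79 FPKM in KD and 2.93, 2.37 and 2.83 FPKM in NC, on 295 and 286 reads. It was the one gene of groups 11 to 13 above 1 FPKM, and the KD and NC values overlapped. Its paralogues Hoxa13 and Hoxc13 had 0 reads, and Hoxd13 had 1 read in KD and 2 in NC.

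The Hoxd cluster was the one whose 3′ genes were also near 0. Hoxd1 had 0 reads, Hoxd3 had 0.155 to 0.226 FPKM in KD and 0.256 to 0.386 FPKM in NC, and the higher of the Hoxd4 rows had 0.139 to 0.165 FPKM in KD and 0.0973 to 0.197 FPKM in NC. Hoxd8, 14 kb from Hoxd4, had 13.1, 10.3 and 11.1 FPKM in KD and 10.5, 10.3 and 9.68 FPKM in NC, 52.6 to 108 times the Hoxd4 level within a library. Expression in the Hoxd cluster above 1 FPKM was thus found in Hoxd8 and Hoxd9 and in no other member. Of the exon bases of Hoxd3 62.8%, and of those of the lower Hoxd4 row 52.3%, are shared with other annotated genes, and the identifier of the higher Hoxd4 row was not matched in GENCODE M21. Among the genes that share these bases, the protein-coding Gm28230 had 0.955 to 1.29 FPKM in KD and 0.626 to 1.08 FPKM in NC. The low levels of Hoxd3 and Hoxd4, and the ratio of Hoxd8 to Hoxd4, are therefore uncertain.

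At the 3′ end of the Hoxa and Hoxb clusters levels were low. In the Hoxc cluster Hoxc4 had 6.12 to 7.19 FPKM and Hoxc5 3.10 to 4.34 FPKM across all libraries. Hoxb1 had 0 reads, and Hoxb2, 11.7 kb away, was at least 11.1-fold higher against a floor of 3 reads per library. Hoxa2 to Hoxa4 lay between 1.4 and 5.30 FPKM in every library, and Hoxb2 to Hoxb4 between 0.787 and 4.19 FPKM. Further along the Hoxa cluster levels were higher: Hoxa5, Hoxa6, Hoxa7 and Hoxa9 lay between 8.64 and 15.3 FPKM. The highest means in KD were those of Hoxb9 (62.4 ± 2.0 FPKM), Hoxc10 (29.9 ± 1.1), Hoxa10 (29.2 ± 1.5), Hoxb6 (22.2 ± 3.1) and Hoxc6 (20.9 ± 1.7), and in NC those of Hoxc10 (36.2 ± 0.87), Hoxb9 (35.1 ± 1.2), Hoxa10 (25.6 ± 1.5), Hoxc6 (19.2 ± 2.1) and Hoxb6 (14.3 ± 0.88; SD, n = 3 each). Hoxb9 stood clear of the rest in KD, whereas the NC values of Hoxb9 and Hoxc10 overlapped. In KD the ranges of Hoxc10 and Hoxa10 overlapped, and so did those of Hoxb6 and Hoxc6. No reference tissue of known position was measured beside these cells, so the body level that the pattern corresponds to was not tested.

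Between KD and NC, 6 Hox genes rose, 2 fell and 18 did not pass the test, among the 26 with a mean of at least 1 FPKM. The test was limma on log2(FPKM + 1) over 12299 genes, with a Benjamini-Hochberg adjusted p under 0.05. The 6 were Hoxb9, Hoxb8, Hoxb6, Hoxb5, Hoxd9 and Hoxa5, and Hoxc10 was among the genes that fell. The share that rose was 23.1%, against 10.9% of all tested genes, and the share that fell was 7.69%, against 13.6%. The difference was above 0 in 20 and below 0 in 6 of the 26, and its median was 0.16 on the log2(FPKM + 1) scale, against 0.01 over all tested genes. All KD values lay above all NC values for 10 genes and below them for 3, that is 13 of 26, where 44.2% of all tested genes had groups that did not overlap. With the voom method on recovered reads 9 of the 26 rose and 2 fell, against 14.9% and 13.2% of all tested genes. At an unadjusted limma p under 0.05, 11 were higher and 2 lower, against 18.7% and 20% of all tested genes. The fibroblast markers moved both ways: of the 7 tested Fn1, Col1a1 and Pdgfra rose, Col3a1 and Pdgfrb fell, and Vim and Col1a2 did not pass. Their sum was 1628 to 1662 FPKM in KD and 1367 to 1422 FPKM in NC. The keratinocyte markers summed to 5.64 to 7.13 FPKM in KD and 3.51 to 4.39 FPKM in NC, with Krt5 at 0 reads and Krt10 the one of them that rose. The part of these differences in those of the Hox genes was not tested. In bulk RNA, fewer cells that express a gene and less of its RNA per cell cannot be told apart.

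**Figure D2:**
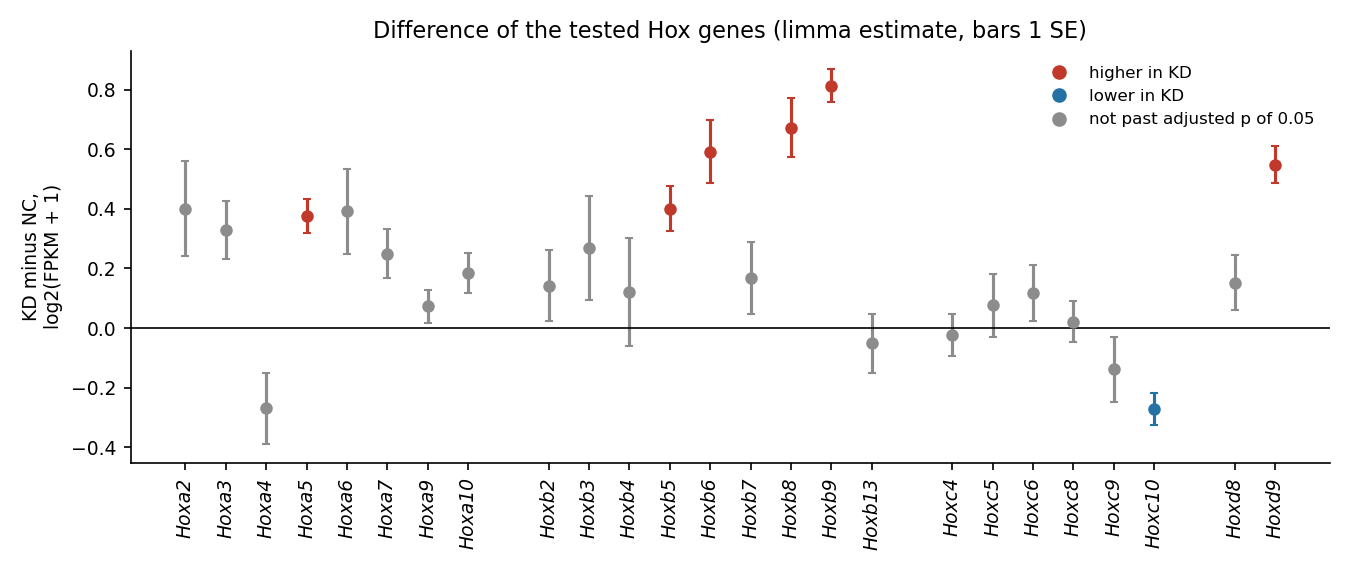
KD minus NC difference of 25 of the 26 tested Hox genes in log2(FPKM + 1), from limma, with bars of 1 standard error, in cluster order. Hoxb5, Hoxb6, Hoxb8 and Hoxb9 lie between 0.40 and 0.81, and the genes of the Hoxc cluster lie between -0.27 and 0.12.

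Of the 6 rises, 4 were in the middle and 5′ part of the Hoxb cluster. Hoxb9, which patterns the thoracic region and acts with its group 9 paralogues in the mammary gland, had 63.0, 64.0 and 60.2 FPKM in KD, against 34.8, 36.4 and 34.1 FPKM in NC. The lowest KD value was well above the highest NC value, and the difference was 0.81 on the log2(FPKM + 1) scale (SE 0.05, limma adjusted p = 0.000206). This was the largest rise among the 26 and rested on 8350 reads in KD and 4318 in NC.

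Hoxb8, which in mice is needed for normal grooming and is expressed in blood progenitors, had 7.28, 6.44 and 8.23 FPKM in KD, against 4.49, 3.84 and 4.29 FPKM in NC. The groups did not overlap (log2 difference 0.67, SE 0.10, limma adjusted p = 0.00442). Hoxb6, a gene of the trunk and lateral plate mesoderm, had 19.2, 21.9 and 25.3 FPKM in KD, against 14.6, 15.0 and 13.3 FPKM in NC. Its KD values spread more than those of NC, with KD1 the lowest of them, but did not reach the NC values (0.59, SE 0.10, limma adjusted p = 0.00891). Hoxb5, which acts in the gut nerve precursors and in the position of the shoulder girdle in mice, had 6.44, 6.33 and 6.34 FPKM in KD, against 4.11, 4.70 and 4.98 FPKM in NC (0.40, SE 0.08, limma adjusted p = 0.0116). Of its exon bases 3.59% are shared with Hoxb5os, whereas Hoxb6, Hoxb8 and Hoxb9 share none with another annotated gene.

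Hoxb7, which lies between Hoxb6 and Hoxb8, 2.31 and 1.31 kb away, had 13.2, 12.8 and 16.4 FPKM in KD and 14.1, 10.9 and 12.4 FPKM in NC. The values overlapped and the difference was 0.17 (SE 0.12, limma adjusted p = 0.347). Whether its change differed from those of Hoxb6 and Hoxb8 was not tested. Hoxb2, Hoxb3, Hoxb4 and Hoxb13 also overlapped between groups, with differences of -0.05 to 0.27. In the Hoxb cluster 4 of 9 tested genes rose and 0 fell by limma, against 10.9% and 13.6% of all tested genes. At an unadjusted p under 0.05 the limma counts were also 4 and 0 (18.7% and 20% of all tested genes). With voom after adjustment they were again 4 and 0 (14.9% and 13.2%). The chromosome 11 median over tested genes was 0.05.

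In the other clusters, Hoxd9 and Hoxa5 rose. Hoxd9, a gene of the lumbar region and the limb, had the FPKM values given above for the Hoxd boundary, with KD above NC in every library (0.55, SE 0.06, limma adjusted p = 0.00176), on 1100 reads in KD and 661 in NC. Its neighbour Hoxd8 overlapped between groups (0.15, SE 0.09, limma adjusted p = 0.272). Hoxa5, which mice need for the lung, trachea and diaphragm to form, had 14.8, 14 and 13.6 FPKM in KD, against 11, 10.5 and 10.4 FPKM in NC. The groups did not overlap, and the difference was 0.38 (SE 0.06, limma adjusted p = 0.00546).

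**Figure D3:**
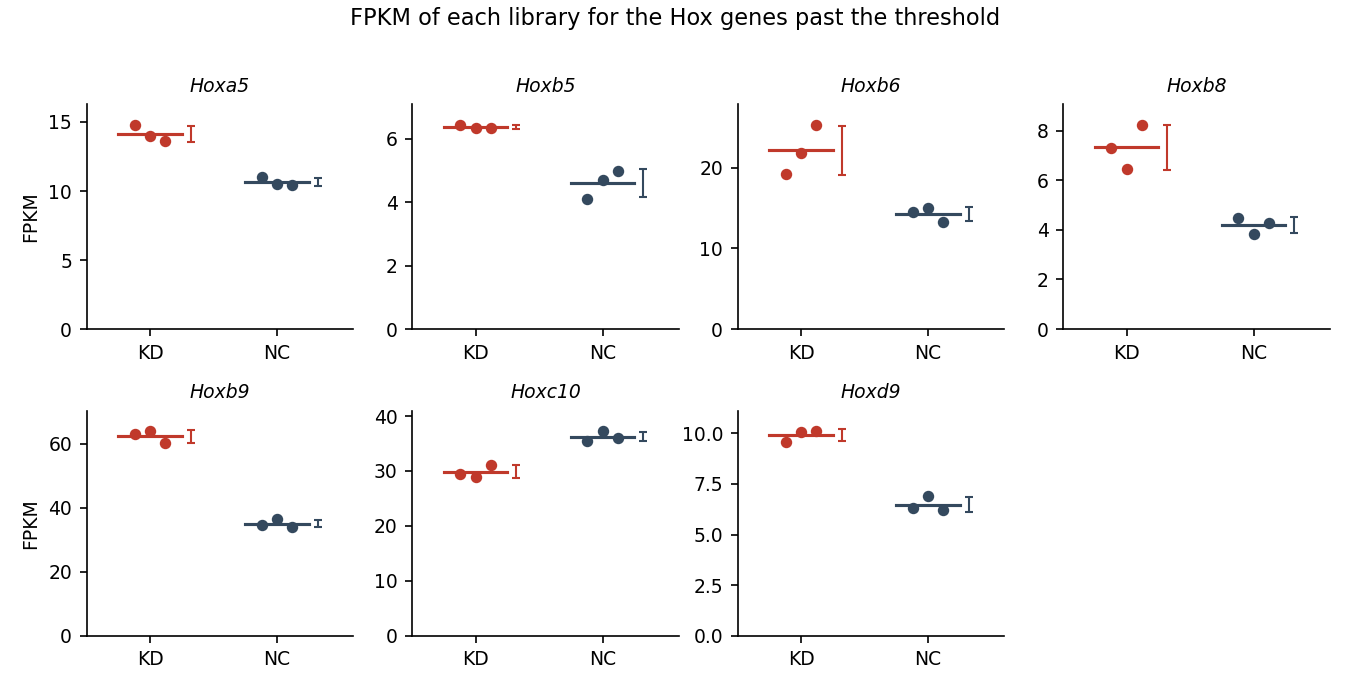
FPKM of each library (points) for 7 Hox genes past the threshold, KD left of NC, with the group mean as a line and 1 SD as a bar beside it. In the panels of Hoxa5, Hoxb5, Hoxb6, Hoxb8, Hoxb9 and Hoxd9 all KD points lie above all NC points, and in that of Hoxc10 all lie below.

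The 6 rises held under all 18 alternatives, including each library left out, with KD1 among them. Without KD1 the differences were 0.81 for Hoxb9, 0.67 for Hoxb8, 0.68 for Hoxb6, 0.39 for Hoxb5, 0.57 for Hoxd9 and 0.35 for Hoxa5. Hoxa3, Hoxa6 and Hoxa7 also passed without KD1, which made 9 of 26 Hox genes that rose, against 2572 of all 12299 tested genes.

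The fall of Hoxc10 was less stable than the rises. Hoxc10, a gene of the lumbar region and hind limb, fell by 0.27 on the log2 scale (SE 0.05, limma adjusted p = 0.0138), with all KD values, given above, below all NC values. The call was lost with chromosome medians removed (adjusted p = 0.0516) and without KD2 (0.0665), NC1 (0.0549), NC2 (0.074) or NC3 (0.06), and it held without KD1 or KD3. Of the exon bases of Hoxc10, 8.70% are shared with Hoxc5.

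Several other Hoxa genes lay higher in KD without passing the test. Hoxa3 had 2.47, 2.76 and 3.06 FPKM in KD, against 1.80, 2.17 and 2.01 FPKM in NC, with no overlap between the groups (0.33, SE 0.10, limma adjusted p = 0.0504). Of its exon bases 27.1% are shared with antisense and other genes, and strand use in the counting is not given in the sources used here, so such reads cannot be told apart. Hoxa10 (0.18, limma adjusted p = 0.0933), Hoxa7 (0.25, adjusted p = 0.0686) and Hoxa9 (0.07, adjusted p = 0.373) had no overlap either, with KD above. Hoxa2 and Hoxa6 overlapped between groups, at 0.40 and 0.39. Hoxa4 lay below NC in KD with no overlap, at -0.27 (adjusted p = 0.149). The median over the tested Hoxa genes was 0.25, whereas the median over the 598 tested genes of chromosome 6 was -0.22. With each chromosome's median removed, Hoxa2, Hoxa3, Hoxa6, Hoxa7, Hoxa9 and Hoxa10 rose as well as Hoxa5. What lies behind the chromosome 6 median was not tested.

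The Hoxc cluster showed little difference apart from Hoxc10. Hoxc4, Hoxc5, Hoxc6, Hoxc8 and Hoxc9 all overlapped between groups, with differences of -0.14 to 0.12 and standard errors of 0.07 to 0.11. Hoxc6, the highest of these, had 20.2, 19.6 and 22.8 FPKM in KD and 21.6, 18.4 and 17.7 FPKM in NC. Of 6 tested genes 0 rose, by limma at an unadjusted p under 0.05 and by voom as well, and the median was 0.00. Over all tested genes 10.9% rose by limma, 18.7% at an unadjusted p under 0.05 and 14.9% by voom.

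Summed levels give the share of each cluster. The Hoxb genes together had 116, 119 and 127 FPKM in KD, against 80.5, 77.6 and 76.1 FPKM in NC, and made up 38.0% of all Hox FPKM in KD and 29.8% in NC. The Hoxc genes had 77.0, 79.0 and 86.7 FPKM in KD and 89.1, 85.7 and 84.2 FPKM in NC, 25.5% and 33.0% of the total. The Hoxb sums did not overlap and the Hoxc sums did. The Hoxa sums were 94.4 ± 2.9 FPKM in KD and 80.3 ± 3.0 FPKM in NC, and the Hoxd sums 21.8 ± 1.2 FPKM in KD and 17.2 ± 0.70 FPKM in NC (SD, n = 3 each). By paralogue number, group 9 summed to 95.3 ± 0.98 FPKM in KD and 64.7 ± 2.1 FPKM in NC, and group 10 to 59.1 ± 2.3 FPKM in KD and 61.8 ± 0.65 FPKM in NC. All Hox genes together came to 318 ± 13 FPKM in KD and 262 ± 7.6 FPKM in NC. These sums were not tested, and differences between clusters were not tested.

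**Figure D4:**
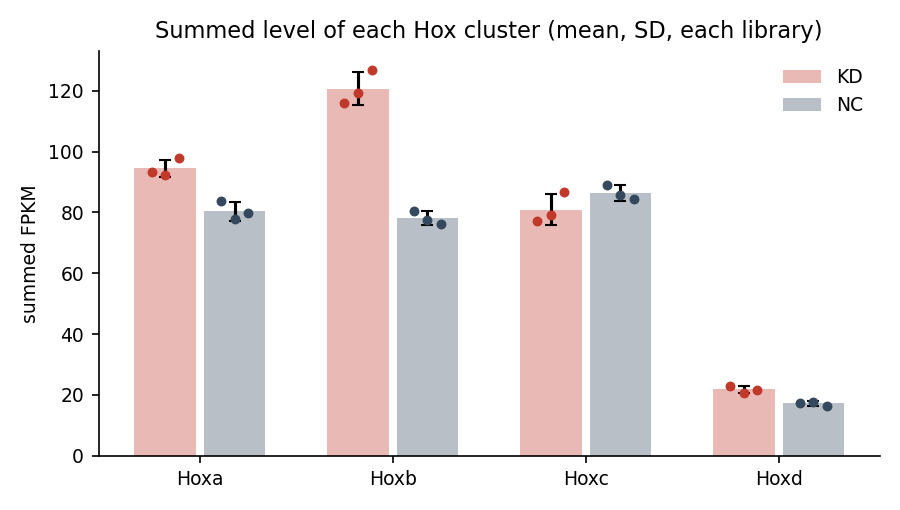
Summed FPKM of the members of each Hox cluster, KD left of NC, with bars for the mean of 3 libraries, error bars of 1 SD and points for the libraries. The Hoxb bar is 121 FPKM in KD and 78.1 FPKM in NC, and the Hoxc bars are 80.9 FPKM in KD and 86.3 FPKM in NC.

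Other genes inside the clusters were mostly low. Of 46 further annotated genes there, 7 of them microRNA genes, 10 reached 1 FPKM, and with limma 0 rose and 0 fell. Over all tested genes 10.9% rose and 13.6% fell by limma, and 14.9% rose by voom. At an unadjusted p under 0.05, where 18.7% of all tested genes were higher in KD, 3 of the 10 were (Gm11536 in the Hoxb cluster and the antisense RNAs Hoxaas2 and Hoxaas3 in the Hoxa cluster, named after their values were seen), and with voom 1 rose after adjustment. Hoxaas3, which shares exon bases with Hoxa7, had 1.42, 1.67 and 2.01 FPKM in KD and 0.970, 1.37 and 0.808 FPKM in NC (0.40, limma adjusted p = 0.0898).

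Of the 16 nearest expressed protein-coding genes outside the clusters, 2 on each side of each, 2 rose and 2 fell. The shares over all tested genes were 10.9% and 13.6%, so these counts were near them. Beside the Hoxb cluster Ttll6, which modifies tubulin, had 3.85, 3.04 and 3.03 FPKM in KD, against 2.19, 1.63 and 2.04 FPKM in NC (0.54, SE 0.12, limma adjusted p = 0.0186). Cbx1, a heterochromatin protein, had 21.7, 22.6 and 23.6 FPKM in KD, against 19.2, 18.5 and 18.7 FPKM in NC (0.25, SE 0.05, limma adjusted p = 0.0179). Beside the Hoxa cluster Snx10 (-0.43, SE 0.12, limma adjusted p = 0.0407) and Tax1bp1 (-0.39, SE 0.08, limma adjusted p = 0.0129) fell, with the sign of the chromosome 6 median. Without NC2 or KD2 each of these 4 calls was lost, at adjusted p of 0.0501 to 0.133.

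Genes that act on or with the Hox genes changed in small numbers. Of the 11 TALE homeodomain genes (the Pbx, Meis, Pknox and Tgif families) 7 were tested. By limma 0 rose and 1 fell (10.9% and 13.6% of all tested genes). The counts were 2 and 1 at an unadjusted limma p under 0.05 (18.7% and 20%), and 1 and 1 by voom (14.9% and 13.2%). The gene that fell was Tgif1, a repressor outside the Pbx, Meis and Pknox families. Tgif1 had 16.3, 13.7 and 13.3 FPKM in KD, against 17.8, 18.1 and 18 FPKM in NC (-0.30, SE 0.08, limma adjusted p = 0.038). This call was kept when KD1 was left out and lost when any other library was. Pbx2 had 6.22, 7.23 and 7.36 FPKM in KD and 5.80, 4.84 and 6.07 FPKM in NC, and did not pass (0.27, limma adjusted p = 0.0876).

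Of 27 Polycomb group genes 26 were tested, with 1 rise and 2 falls by limma and a median of -0.02. The shares over all tested genes were 10.9% and 13.6%. At an unadjusted p under 0.05 the counts were 2 and 4 (18.7% and 20%), and by voom 1 and 2 (14.9% and 13.2%). Cbx6 rose (0.43, SE 0.11, limma adjusted p = 0.0348), and Pcgf5 (-0.45, SE 0.09, adjusted p = 0.0156) and Pcgf1 (-0.36, SE 0.07, adjusted p = 0.0147), subunits of variant Polycomb repressive complex 1, fell. The methyltransferase Ezh2 had 26.0 to 28.6 FPKM in KD and 28.2 to 29.9 FPKM in NC (-0.08, adjusted p = 0.349). Bmi1 had 38.1, 24.9 and 23.0 FPKM in KD and 38.5, 38.8 and 36.5 FPKM in NC, so that KD1 alone was near NC (-0.43, adjusted p = 0.124). Without KD1 the Polycomb counts were 3 rises and 7 falls, and without KD2 or any NC library they were 0 and 0. Over all 12299 tested genes, 2572 rose and 2648 fell without KD1. Without KD2 or an NC library, 590 to 651 of them rose and 923 to 983 fell.

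Of 17 Trithorax group and histone H3 lysine 27 demethylase genes 16 were tested. By limma 0 rose and 2 fell (10.9% and 13.6% of all tested genes). The counts were 1 and 3 at an unadjusted limma p under 0.05 (18.7% and 20%), and 2 and 2 by voom (14.9% and 13.2%). Kdm6b, a demethylase that removes the Polycomb mark, had 5.81, 6.73 and 6.63 FPKM in KD, against 8.98, 8.68 and 8.55 FPKM in NC (-0.40, SE 0.07, limma adjusted p = 0.00861), and this call held in every alternative. Aff1, of the elongation complex, fell by 0.23 (SE 0.06, limma adjusted p = 0.0266), lost without any library but KD1. Kmt2a, the methyltransferase best known for keeping Hox genes on, had 12 to 14 FPKM in KD and 11.1 to 11.2 FPKM in NC (0.21, limma adjusted p = 0.0674). Without KD1 the counts were 2 rises and 5 falls, against 2572 and 2648 of all 12299 tested genes.

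The largest differences in these lists were in retinoic acid metabolism. Of 18 genes of this pathway 9 were tested, with 1 rise and 2 falls by limma and a median of 0.15. The shares over all tested genes were 10.9% and 13.6%. At an unadjusted p under 0.05 the counts were 2 and 2 (18.7% and 20%), and by voom 2 and 2 (14.9% and 13.2%). Cyp26b1, an enzyme that breaks down retinoic acid, had 0.485, 0.463 and 0.497 FPKM in KD, against 2.70, 3.13 and 3.01 FPKM in NC (-1.41, SE 0.10, limma adjusted p = 0.000224). Cyp26c1, of the same family, had 1.55, 1.97 and 1.62 FPKM in KD, against 4.10, 4.86 and 4.23 FPKM in NC (-0.99, SE 0.10, limma adjusted p = 0.00106). The third enzyme of the family, Cyp26a1, was below the level for the test, at 0.274, 0.375 and 0.233 FPKM in KD and 1.58, 1.46 and 1.39 FPKM in NC. All KD values of the 3 enzymes lay below all their NC values. Among the 12299 tested genes, which do not include Cyp26a1, 2814 had KD wholly below NC.

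Aldh1a1, which makes retinoic acid from retinal, had 2.04, 1.97 and 2.11 FPKM in KD, against 0.315, 0.599 and 0.448 FPKM in NC (1.07, SE 0.12, limma adjusted p = 0.00157). The 3 calls of Cyp26b1, Cyp26c1 and Aldh1a1 held without each library. The receptors Rara, Rarg, Rxra and Rxrb did not pass, at -0.02 to 0.29. Rxrg and Stra6 were too low for the test. Rxrg had 0.386 to 0.635 FPKM in KD and 1.18 to 1.32 FPKM in NC. Stra6 had 0.162 to 0.238 FPKM in KD and 0.0107 to 0.0216 FPKM in NC. Rdh10 had 4.17 to 4.76 FPKM in KD and 4.85 to 5.40 FPKM in NC, and did not pass (-0.14). Of the 9 tested genes, 2 had KD wholly above NC (Aldh1a1 and Rxra) and 3 wholly below (Cyp26b1, Cyp26c1 and Rdh10). Over all 12299 tested genes these counts were 2623 and 2814. The binding protein Crabp2 had 33.0, 53.0 and 61.0 FPKM in KD and 37.1, 37.9 and 37.5 FPKM in NC, with KD1 apart from the other KD libraries. Without KD1 the counts in the pathway were 5 rises and 2 falls, against 2572 and 2648 of all 12299 tested genes. No relation between these genes and the Hox genes was tested.

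Of 54 positional regulators outside the Hox clusters, genes of head, limb, heart and gut patterning, 15 were tested and 19 had 0 reads in all libraries. With limma 2 rose and 2 fell (13.3% each), near the 10.9% and 13.6% of all tested genes, with a median of 0.07. Without KD1 the counts were 4 and 4, against 2572 and 2648 of all 12299 tested genes. Tbx15, a gene of the trunk skin and skeleton, had 19.8 to 20.1 FPKM in KD, against 15.7, 15.4 and 17.1 FPKM in NC (0.30, SE 0.06, limma adjusted p = 0.0134), and the call was lost without KD2, NC1 or NC2. Gata4, of heart and gut mesoderm, had 0.665, 0.495 and 0.409 FPKM in KD, against 1.59, 1.82 and 1.73 FPKM in NC (-0.84, SE 0.12, limma adjusted p = 0.00391), a call held without each library. Pax3, of the neural crest and muscle precursors, had 2.91, 2.47 and 2.73 FPKM in KD, against 3.30, 3.57 and 3.62 FPKM in NC (-0.28, SE 0.08, limma adjusted p = 0.0458), lost without any library but KD1.

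The limb mesenchyme genes Shox2 and Prrx1 were also present, at 5.41 to 17.6 FPKM in every library, with differences of -0.03 and 0.07 that did not pass.

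**Figure D5:**
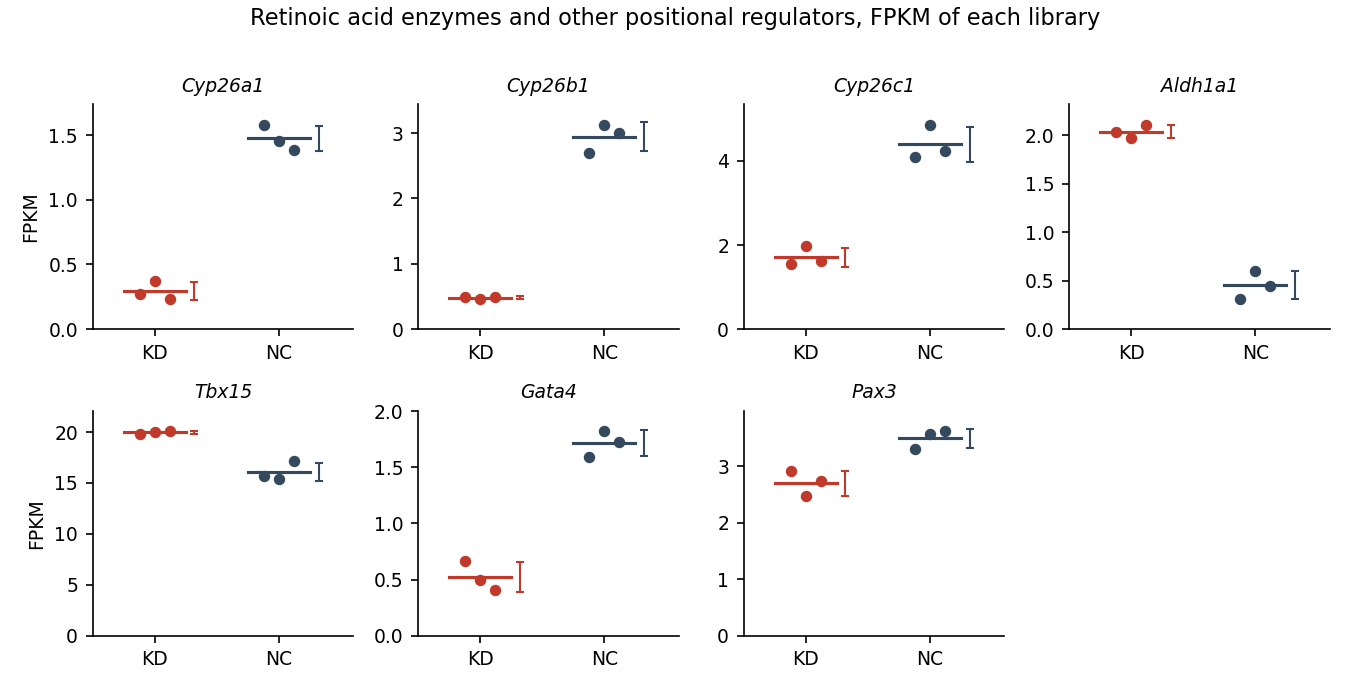
FPKM of each library (points) for retinoic acid enzymes (Cyp26a1, Cyp26b1, Cyp26c1 and Aldh1a1) and for positional regulators outside the Hox clusters (Tbx15, Gata4 and Pax3), KD left of NC, with the group mean as a line and 1 SD as a bar beside it. In each panel the KD and NC points do not overlap, with KD higher for Aldh1a1 and Tbx15 and lower for the other 5.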

How the data were processed

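Total RNA of 6 libraries was sequenced as paired-end reads on an Illumina NovaSeq and aligned with HISAT2 2.0.5, per the labels' protocols, to mm10, per the submitters' processing notes. The authors deposited FPKM values per gene in 1 table, with positions, gene lengths and biotypes. How reads were counted per gene, with or without strand, and on which annotation, is not given in the sources used here. FPKM times gene length was a whole number of steps for 100% of values within 0.01, so reads per gene and their sum per library were recovered. Counting limits are from 3 reads and cover counting error only.

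Groups came from the titles. The 12299 genes averaging 1 FPKM or more over the 6 libraries were tested with limma 3.58.1 (R 4.3.3) on log2(FPKM + 1), with a trend on level and Benjamini-Hochberg adjustment over all of them at 0.05. Differences are on this scale, which understates changes of low genes. Boundary ratios use FPKM. The code was tested on simulated data. Exon overlaps and transcripts are from GENCODE M21, which may differ from the annotation used for counting. The members, 5 gene lists and 8 marker lists were chosen with earlier results of these data known.

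Named genes were every Hox row, other genes inside the clusters, the 2 nearest expressed protein-coding genes on each side, and up to 5 called members of each list with the largest differences. A few list members that did not pass, such as Cyp26a1, Kmt2a and Bmi1, were named after their values were seen. A few genes chosen this way are not reported here and not plotted singly, but counts and sums include them. Alternatives were pseudocounts of 0.1 and 5, no filter or 5 FPKM, median-of-ratios or equal-total scaling, no trend, voom on recovered reads, a replicate block, chromosome medians removed, protein-coding genes only and each library left out. Removing a trend on GC content and gene length, by 5-df splines, was chosen after seeing the data. Plots used Python 3.11.15 and matplotlib 3.10.9.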

Additional observations from a re-analysis of the deposited data

How the results depend on the processing

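The 6 Hox genes that rose were called in each of the 18 alternatives, and between 6 and 9 rose with a library left out. With chromosome medians removed 12 rose, against 1075 of all 12299 tested genes. The 2 falls were reduced to 1 with a pseudocount of 0.1, no filter, a filter of 5 FPKM (under which fewer Hox genes were tested), equal totals, the replicate block, or the GC and length trend removed, to 0 with chromosome medians removed, and to between 0 and 2 with a library left out; apart from the 5 FPKM filter the cause was not tested. Over all genes, 1344 higher and 1672 lower calls became 2269 and 2302 with the GC and length trend removed. With a library left out the genes higher in KD numbered 590 to 2572 and the genes lower in KD 923 to 2648, the highest of each without KD1.

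Differences near 0 that were never called changed sign. Hoxc4 was 0.013 with equal totals, 0.011 with voom and 0.061 with chromosome medians removed, and -0.072 to 0.029 with a library left out. With a library left out Hoxb4 was -0.048 to 0.25, Hoxb13 -0.12 to 0.0068, Hoxc5 -0.015 to 0.12 and Hoxc8 -0.010 to 0.075.

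The replicate numbers did not pair the samples: same-numbered KD and NC libraries had correlations of deviations of 0.08, -0.04 and 0.15, and not every library correlated best with its own number. With the replicate block 6 Hox genes rose and 1 fell, and 1050 genes were higher and 1383 lower. Members with under 100 reads in a group (Hoxc11, Hoxd3, Hoxd4 and Hoxd13) are limited by depth.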
